A study of Mus musculus with 18 samples.

Results

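The 10 genes described here are known as markers of satellite cell quiescence or as satellite cell surface proteins, and were followed in cultured mouse satellite cells with and without Hoxa10. They were taken by name, as the rows of the count table whose mouse Ensembl identifiers pair with Calcr, Cd34, Spry1, Chrdl2, Tek, Sdc3, Sdc4, Vcam1, Cxcr4 and Itm2a. All 10 symbols matched 1 row each, of 50689 rows in all. The measurement was RNA sequencing with unique molecular identifiers (UMIs, short tags that let copies of one molecule be counted once) in 18 libraries.

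The 9 scKO libraries came from C57BL6 cells of genotype Pax7-CreERT2/+;Hoxa10f/f exposed to 4-hydroxytamoxifen at 1 µM for 2 days. The 9 control libraries came from C57BL6 cells of genotype Hoxa10f/f, for which the labels list no 4-hydroxytamoxifen. Both groups carry the floxed Hoxa10 alleles, so they differ in Cre and in the deletion together. Whether they also differ in the drug is not known, as the control labels neither list nor exclude it. The Cre is driven from Pax7, so recombination is limited to cells that express Pax7 when the drug is present. All cells were grown from tibialis anterior muscle on matrigel in growth medium. The labels do not say whether libraries stem from separate animals or cultures, and p-values then measure only the spread between these libraries.

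Satellite cells are the stem cells of skeletal muscle. In resting muscle they lie quiescent under the basal lamina of the fibre, and after injury they divide, make myoblasts and partly return to quiescence. Surface receptors, adhesion molecules and heparan sulphate proteoglycans tie them to that niche and are used to sort them, and several transcripts of quiescent cells are lost soon after culture begins.

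The libraries fell into 2 depth classes. Deep libraries, with over 2000000 counts, were scKO 6, 7 and 9 (5295236 to 5842408 counts) and control 1 and 2 (4346150 to 5986128 counts). Shallow libraries were the other 6 scKO (613915 to 968559 counts) and the other 7 control libraries (420197 to 917166 counts). No gene exceeded 4096 counts in any library, and the highest count of a marker gene was 1349, for Sdc4 in control 2. Levels are given as CPM, the usual rate of counts relative to the library total, with totals scaled by TMM, edgeR's trimmed mean method. Hoxa10 itself was lower in scKO in both classes, at 10.6, 7.33 and 7.03 CPM in deep scKO against 38.8 and 41.0 CPM in deep control libraries, and at 1.94 to 4.94 CPM in shallow scKO against 15.3 to 66.4 CPM in shallow control libraries. Myogenic markers were present throughout, with all 6 of Pax7, Myf5, Myod1, Cdh15, Itga7 and Des detected in each class and group. Scarcer were 8 endothelial markers, which summed to 8.32 to 48.1 CPM in scKO and 9.57 to 69.1 CPM in control shallow libraries, with Cldn5 at 0 in both, and 8 leukocyte markers, which summed to 1.15 to 21.4 CPM in scKO and 2.40 to 16.6 CPM in control shallow libraries, with Adgre1 at 0 in both. The 1st principal component, with 48.6% of the variance, set every deep library (-53.7 to -50) apart from every shallow one (3.6 to 44.1). The 4 shallow libraries scKO 1 and control 7, 8 and 9 stood apart from the rest on the 2nd principal component, which held 14.1% of the variance. In a bulk sample, fewer cells that express a gene and less RNA per cell cannot be told apart.

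In scKO cells, Sdc3 was lower and Spry1 and Itm2a were higher within the deep libraries, and none of the 10 genes passed the test within the shallow libraries. The upstream sequences of these 3 genes are shown because they are the ones whose levels differed, 250 bases before the RefSeq transcription start in GRCm38.p6, 5′ to 3′ on the gene's strand. For Itm2a that start lies just inside the GENCODE gene. Capitals mark every match to the E-box CANNTG, the core that MyoD family proteins bind.

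Spry1, chr3:37639697-37639946, plus strand: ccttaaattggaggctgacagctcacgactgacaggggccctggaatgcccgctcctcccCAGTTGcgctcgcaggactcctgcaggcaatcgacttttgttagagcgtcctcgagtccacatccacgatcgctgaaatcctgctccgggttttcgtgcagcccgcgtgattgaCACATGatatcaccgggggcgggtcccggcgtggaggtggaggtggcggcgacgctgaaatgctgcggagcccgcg
Itm2a, chrX:107403361-107403610, minus strand: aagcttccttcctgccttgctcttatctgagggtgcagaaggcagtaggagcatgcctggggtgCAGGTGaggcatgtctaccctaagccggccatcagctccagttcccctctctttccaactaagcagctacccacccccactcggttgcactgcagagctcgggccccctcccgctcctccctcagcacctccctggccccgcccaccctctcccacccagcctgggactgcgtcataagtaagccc
Sdc3, chr4:130792287-130792536, plus strand: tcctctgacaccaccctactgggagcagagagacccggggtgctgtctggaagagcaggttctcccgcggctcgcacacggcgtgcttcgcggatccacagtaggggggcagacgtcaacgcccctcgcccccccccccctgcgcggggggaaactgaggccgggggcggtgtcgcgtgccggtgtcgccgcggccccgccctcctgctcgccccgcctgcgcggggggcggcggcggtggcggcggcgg

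The E-box was searched on both strands, and its palindromic form means that 1 stretch gives 1 match. The Spry1 window held 2 matches, CAGTTG and CACATG, the Itm2a window held 1, CAGGTG, and the Sdc3 window held 0. Of 32851 windows of the same length in the RefSeq table, 66.2% held at least 1 match. GTGGGAA, the core recognised by the Notch effector Rbpj, was searched on both strands too, matched in 5.42% of all windows and was in none of these 3. The G and C content was 62.4% for Spry1, 62.8% for Itm2a and 76.4% for Sdc3. Matches describe these letters only.

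Calcr, the calcitonin receptor, holds adult mouse satellite cells in quiescence and is lost when they enter the cell cycle. It was at 0 counts in all 18 libraries, 9 scKO and 9 control. Over the 36196493 counts of the series, a count of 0 allows up to 0.0829 CPM of the unscaled totals (3 counts), or 0.143 CPM over the 9 scKO and 0.198 CPM over the 9 control libraries. Such floors cover counting error only. GENCODE M21 places it at chr6:3685680-3764714 of GRCm38, minus strand. Its relative Calcrl and the accessory proteins Ramp1, Ramp2 and Ramp3 were all detected in deep libraries. Ramp3, which lets these receptors bind other peptides, was the highest of the 4. Ramp3 was at 8.64, 15.7 and 17.3 CPM in deep scKO against 7.79 and 6.24 CPM in deep control libraries (log2 fold change 0.99, SE 0.29; edgeR adjusted p = 0.0493). That call was lost without control 1 or 2 or scKO 7 or 9 (adjusted p = 0.112 to 0.235), by limma-voom (adjusted p = 0.0994) and with UMI collisions corrected (adjusted p = 0.0558).

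Tek, also called Tie2, is the receptor tyrosine kinase for the angiopoietins and has been tied to satellite cell quiescence in mouse. It was close to the limit of detection and was too low to test. Summed counts were 16 over 3 deep scKO and 8 over 2 deep control libraries, or 0.959 CPM of the unscaled totals (exact Poisson 95% interval 0.548 to 1.56) and 0.774 CPM (0.334 to 1.53). The intervals overlapped, cover counting error only and are no test of a difference. Each deep scKO library (0.708, 0.785 and 0.732 CPM) nonetheless lay above both deep control libraries (0.557 and 0.624 CPM), from 3 to 6 counts each. Among shallow libraries there were 8 counts over 6 scKO and 4 over 7 control libraries, with 2 scKO and 3 control libraries at 0. The endothelial receptor Tie1 and the ligand Angpt1 were likewise low, at 1.96 ± 0.226 and 11.1 ± 0.662 CPM in deep scKO (SD, n = 3) and 1.58 ± 1.18 and 10.8 ± 4.73 CPM in deep control libraries (SD, n = 2). Angpt2, the partner of Tek with the highest mean over all 18 libraries, though not in the deep ones, was at 8.66 ± 2.30 CPM in deep scKO (SD, n = 3) and 9.21 ± 6.14 CPM in deep control libraries (SD, n = 2).

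Cxcr4 is the receptor of the chemokine Cxcl12, which guides the migration of muscle precursors. Deep scKO libraries had 82.6, 103 and 103 CPM of Cxcr4, against 86.5 and 98.4 CPM in deep control libraries. The groups overlapped, with a log2 fold change of 0.04 (95% interval -0.21 to 0.29; edgeR adjusted p = 0.864). In shallow libraries Cxcr4 ran from 20.8 through a median of 38.1 to 42.6 CPM in scKO and from 19.4 through 32.9 to 45.5 CPM in control, a log2 fold change of 0.24 (95% interval -0.26 to 0.75; edgeR adjusted p = 0.874). Every deep library thus lay above every shallow one in either group. The difference of deep from shallow was 1.54 on the log2 scale, above that of 97.1% of the 7662 genes tested, whose median was -0.01. Correcting the counts for UMI collisions left it at 1.53. Depth class is a property of the libraries, and whether it marks another sequencing run or other cells is not in the labels. The 6 myogenic markers summed to 1810 to 2260 CPM in the 5 deep libraries, against 5580 to 9610 CPM in the 13 shallow ones. A count of 4096, the highest seen, corresponds to 511 to 760 CPM in deep libraries and to 4730 to 12240 CPM in shallow ones. In shallow control libraries Cdh15 alone was at 1650 to 2230 CPM, above that deep limit, so the sums cannot be compared between classes. Whether myogenic content has a part in the Cxcr4 difference was not tested.

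The ligand, Cxcl12, differed where its receptor did not pass the test. Cxcl12 was at 108, 111 and 125 CPM in deep scKO and at 189 and 175 CPM in deep control libraries. The groups did not overlap, and Cxcl12 fell by 0.68 on the log2 scale (SE 0.09; edgeR adjusted p = 0.000696). In shallow libraries it was at 113 to 202 CPM in scKO and 143 to 301 CPM in control, or -0.50 on the log2 scale (SE 0.20; edgeR adjusted p = 0.729). With all 18 libraries and the depth class as a covariate the value was -0.54 (SE 0.15; edgeR adjusted p = 0.0758), and it passed without the 4 libraries that stood apart (adjusted p = 0.0307), without scKO 1 (adjusted p = 0.0282), without a count filter (adjusted p = 0.0288) and by DESeq2 (adjusted p = 0.019). Ackr3, the other receptor of Cxcl12, was at 40.4 ± 3.19 CPM in deep scKO (SD, n = 3) and 36.2 ± 3.15 CPM in deep control libraries (SD, n = 2; log2 fold change 0.15, edgeR adjusted p = 0.465).

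**Figure D1:**
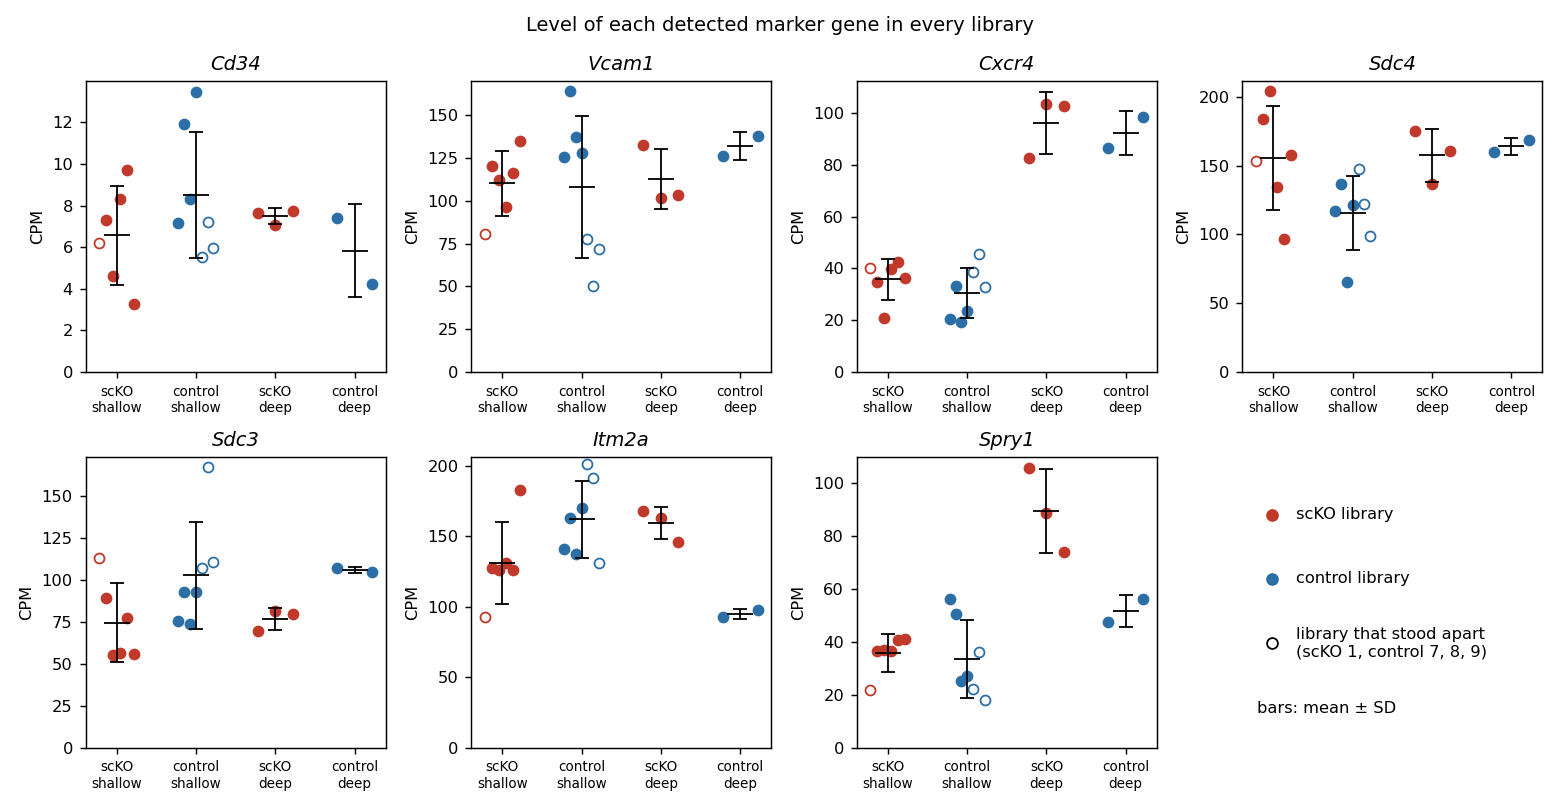
CPM of the 7 marker genes with enough counts to test in at least 1 depth class, by group and depth class (scKO left of control); each point is a library, open points are the 4 libraries that stood apart, and bars give mean ± SD. The deep groups are separate for Sdc3, Itm2a and Spry1, and Cxcr4 is higher in deep than in shallow libraries of both groups.

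Cd34, a sialomucin used to sort satellite cells from resting muscle and shared with endothelial and blood stem cells, was detected in every library at a low level. Deep scKO libraries held 54, 54 and 53 counts, or 7.65, 7.06 and 7.76 CPM, against 40 and 34 counts, or 7.42 and 4.25 CPM, in deep control libraries. These ranges overlapped (log2 fold change 0.39, 95% interval -0.17 to 0.94; edgeR adjusted p = 0.351). Shallow libraries held 2 to 5 counts each in scKO and 2 to 9 in control, 24 and 37 in all, which did not pass the count filter. Its relative Podxl was at 4.00 ± 1.45 CPM in deep scKO (SD, n = 3) and 3.57 ± 0.0672 CPM in deep control libraries (SD, n = 2). Exons of Cd34 (chromosome 1, 194938819 to 194961279) overlap the antisense gene Gm16897. Exons of Spry1, Sdc3 and Vcam1 likewise overlap genes on the opposite strand, and whether counting used strand is not given in the sources used here, so reads of such pairs cannot be told apart.

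Vcam1, an immunoglobulin-type adhesion molecule that binds integrins containing the alpha 4 chain, was at 133, 102 and 103 CPM in deep scKO and at 126 and 138 CPM in deep control libraries. Of the scKO libraries, scKO 6 lay between the controls, and the other two lay below both. The log2 fold change was -0.25 (95% interval -0.50 to 0.00; edgeR adjusted p = 0.172). Without scKO 6 it was -0.38 and passed (edgeR adjusted p = 0.0235). In shallow libraries the level ran from 80.7 through a median of 114 to 135 CPM in scKO and from 50.3 through 126 to 164 CPM in control libraries (log2 fold change 0.00, 95% interval -0.46 to 0.46; edgeR adjusted p = 0.999). The 4 libraries that stood apart held the 4 lowest shallow values of Vcam1, at 80.7 CPM in scKO 1 and 50.3 to 77.5 CPM in the 3 controls, while the rest were at 96.5 to 135 CPM in 5 scKO and 126 to 164 CPM in 4 control libraries. Without them the shallow value was -0.26 on the log2 scale (SE 0.16; edgeR adjusted p = 0.664).

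Of the integrin chains that pair with it, Itgb1, the beta 1 chain, was more abundant. Itgb1 was the highest of the integrin partners at 444 ± 17.1 CPM in deep scKO (SD, n = 3) and 441 ± 37.7 CPM in deep control libraries (SD, n = 2), close to the 511 to 760 CPM to which the highest count corresponds in deep control libraries. Itga4, the alpha 4 chain, was at 55.6 ± 13.4 CPM in deep scKO (SD, n = 3) and 40.3 ± 4.57 CPM in deep control libraries (SD, n = 2; log2 fold change 0.44, edgeR adjusted p = 0.143).

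Sdc3 and Sdc4 are syndecans, transmembrane proteoglycans whose heparan sulphate chains hold growth factors such as FGF and HGF at the cell surface, and both mark satellite cells. Sdc3 was lower in scKO in the deep libraries, and its shallow difference had the same sign without passing the test. Deep scKO libraries were at 69.4, 81.8 and 79.8 CPM, against 107 and 105 CPM in deep control libraries. These groups did not overlap, and Sdc3 fell by 0.48 on the log2 scale (SE 0.10, 95% interval -0.69 to -0.26; edgeR adjusted p = 0.00703). Shallow libraries ran from 55.4 through a median of 67.0 to 113 CPM in scKO and from 73.6 through 92.7 to 168 CPM in control. They overlapped, and the difference was -0.46 on the log2 scale (SE 0.22, 95% interval -0.93 to 0.01; edgeR adjusted p = 0.822). That shallow value was -0.30 without control 8, -0.60 without scKO 1 and -0.33 with all 4 of the libraries set apart left out (edgeR adjusted p = 0.969, 0.254 and 0.638). The test of a difference between the classes gave -0.02 on the log2 scale (95% interval -0.72 to 0.68; edgeR adjusted p = 0.998).

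Over all 18 libraries with the depth class as a covariate, the Sdc3 difference was -0.45 on the log2 scale (SE 0.16; edgeR adjusted p = 0.217; unadjusted p = 0.00927), short of the threshold. It passed without scKO 1 (-0.55; edgeR adjusted p = 0.0457) and without the 4 libraries that stood apart (-0.40; edgeR adjusted p = 0.0352). These 4 held the highest shallow values of their groups, at 113 CPM in scKO 1 and 107 to 168 CPM in the 3 controls, against 55.4 to 89.3 CPM in the other 5 scKO and 73.6 to 92.7 CPM in the other 4 control libraries. Their summed myogenic markers were at 8530 to 9610 CPM against 5580 to 7550 CPM in the other 9 shallow libraries. Their tendon markers summed to 137 to 188 CPM against 314 to 534 CPM. That tendon sum was almost all Scx, with 13318 counts over the 18 libraries beside 47 of Mkx, 3 of Tnmd and 2 of Fmod. The part of these differences in the Sdc3 result was not tested beyond leaving the libraries out.

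Sdc4 had the highest mean CPM of the marker genes in deep control and shallow scKO libraries, where Itm2a led in the others, and did not pass the test in either class. Deep scKO libraries were at 175, 137 and 160 CPM and deep control libraries at 160 and 168 CPM (log2 fold change -0.08, 95% interval -0.31 to 0.15; edgeR adjusted p = 0.679). Shallow libraries ran from 96.9 through a median of 156 to 204 CPM in scKO and from 65.2 through 121 to 148 CPM in control (log2 fold change 0.42, 95% interval 0.01 to 0.83; edgeR adjusted p = 0.800; unadjusted p = 0.0432). Their syndecan relatives Sdc1 and Sdc2 were at 78.4 ± 3.44 and 86.5 ± 6.77 CPM in deep scKO (SD, n = 3) and at 85.8 ± 5.15 and 96.2 ± 21.3 CPM in deep control libraries (SD, n = 2), neither an edgeR call. Gpc1, a proteoglycan anchored by a lipid and the highest of this group, was at 193 ± 13.1 CPM in deep scKO (SD, n = 3) and 161 ± 14.2 CPM in deep control libraries (SD, n = 2; log2 fold change 0.25, edgeR adjusted p = 0.102).

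Itm2a, a type II membrane protein with a BRICHOS domain that is expressed in developing muscle, cartilage and T cells, was higher in deep scKO libraries, at 168, 163 and 146 CPM, against 92.6 and 97.5 CPM in deep control libraries. The groups did not overlap, and Itm2a rose by 0.73 on the log2 scale (SE 0.09, 95% interval 0.53 to 0.93; edgeR adjusted p = 0.000477), the smallest adjusted p among the 10 genes in any comparison. Shallow libraries ran from 93.1 through a median of 127 to 183 CPM in scKO and from 131 through 163 to 201 CPM in control. There the value had the other sign, at -0.32 on the log2 scale (SE 0.17, 95% interval -0.67 to 0.03; edgeR adjusted p = 0.822). Without the 4 libraries that stood apart the shallow value was -0.14 (SE 0.16; edgeR adjusted p = 0.853). The deep minus shallow difference in log2 fold change was 1.05 (SE 0.27, 95% interval 0.49 to 1.61; unadjusted p = 0.000744; edgeR adjusted p = 0.388), so over the 7662 genes tested it was not called. With the depth class as a covariate the 2 classes cancelled to 0.01 (SE 0.16; edgeR adjusted p = 0.994). Both deep controls lay below all 7 shallow controls, whereas deep and shallow scKO libraries overlapped. Its relatives Itm2b and Itm2c were at 343 ± 15.7 and 80.8 ± 1.84 CPM in deep scKO (SD, n = 3) and 320 ± 56.1 and 69.0 ± 3.68 CPM in deep control libraries (SD, n = 2), neither an edgeR call.

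Spry1, an intracellular inhibitor of receptor tyrosine kinase signalling that mouse satellite cells need to return to quiescence, was also higher in deep scKO. Its level there was 105, 88.4 and 73.9 CPM, against 47.3 and 55.9 CPM in deep control libraries. All 3 scKO values lay above both controls, and Spry1 rose by 0.77 on the log2 scale (SE 0.14, 95% interval 0.45 to 1.08; edgeR adjusted p = 0.00471). Shallow libraries ran from 21.7 through a median of 36.8 to 41.1 CPM in scKO and from 17.9 through 27.0 to 56.2 CPM in control (log2 fold change 0.03, 95% interval -0.51 to 0.57; edgeR adjusted p = 0.991). Shallow control libraries held only 6 to 47 Spry1 counts each. The difference between the classes was 0.77 (SE 0.37; unadjusted p = 0.0478; edgeR adjusted p = 0.805). Other inhibitors of the same kind did not pass the test. Spry2 was at 102 ± 16.6 CPM in deep scKO (SD, n = 3) and 104 ± 1.20 CPM in deep control libraries (SD, n = 2; log2 fold change -0.03, edgeR adjusted p = 0.898). Spred1, the most abundant of them, was at 147 ± 2.83 CPM in deep scKO (SD, n = 3) and 145 ± 7.10 CPM in deep control libraries (SD, n = 2; log2 fold change 0.00, edgeR adjusted p = 0.985).

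Chrdl2, a secreted protein of the chordin family that binds bone morphogenetic proteins (BMPs), was scarce. It had 20 counts over 3 deep scKO and 13 over 2 deep control libraries, or 1.20 CPM of the unscaled totals (exact Poisson 95% interval 0.732 to 1.85) and 1.26 CPM (0.670 to 2.15). The intervals overlapped. Shallow libraries held 0 counts over 6 scKO, which allows up to 0.688 CPM, and 2 counts over 7 control libraries. Of 5 related secreted antagonists, Fst, Grem1 and Nog were called higher in deep scKO, beside 7.31% of all genes tested there. The 5 belong to the 33 ligands, receptors and relatives of the marker genes, of which 17.2% of those tested were called, beside 14.3% of all genes. Chrd, chordin, was at 19.0 ± 4.00 CPM in deep scKO (SD, n = 3) and 16.6 ± 5.12 CPM in deep control libraries (SD, n = 2; log2 fold change 0.21, edgeR adjusted p = 0.582), and Chrdl1 was too low to test. Fst, follistatin, which binds activin and myostatin, was at 96.3, 116 and 121 CPM in deep scKO against 68.7 and 67.8 CPM in deep control libraries, and rose by 0.69 on the log2 scale (SE 0.11; edgeR adjusted p = 0.00168). Grem1, gremlin, rose by 0.66 (SE 0.14; edgeR adjusted p = 0.00585), at 32.1, 35.3 and 34.5 CPM against 19.7 and 22.6 CPM in deep control libraries.

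Nog, noggin, rose by 0.54 (SE 0.17; edgeR adjusted p = 0.0473), a call lost without control 1 or 2 or scKO 7 or 9 (adjusted p = 0.0781 to 0.191), by DESeq2, by limma-voom and without robust dispersions. In shallow libraries Fst, Grem1 and Nog differed by -0.13, 0.27 and -0.99 on the log2 scale without passing edgeR's test, and the test between classes called none of them (edgeR adjusted p = 0.717, 0.969 and 0.826).

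**Figure D2:**
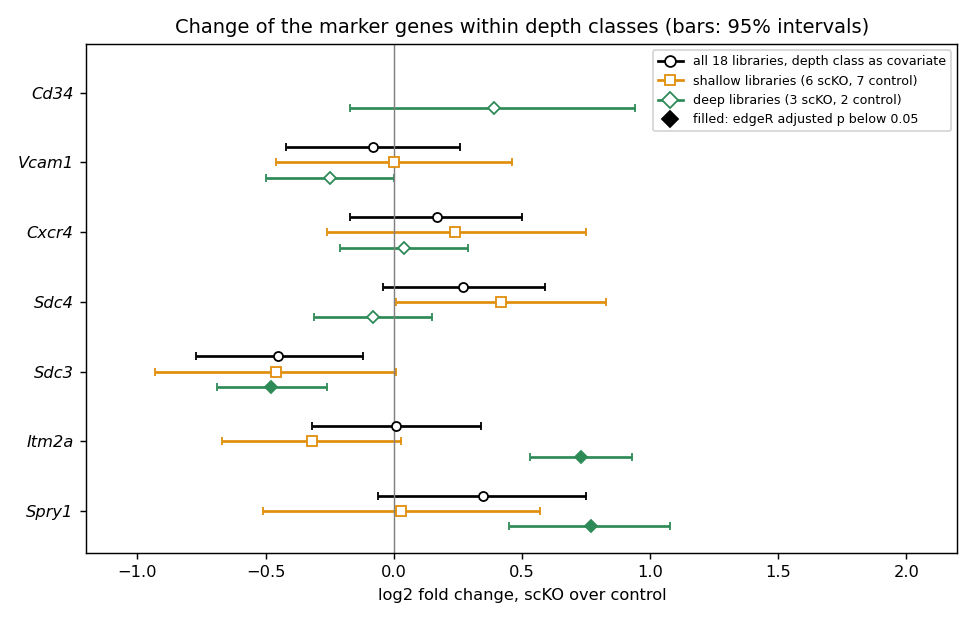
Log2 fold change of scKO over control for the marker genes that passed the count filter, with 95% intervals, over all 18 libraries with the depth class as a covariate, in shallow and in deep libraries; filled symbols passed edgeR at an adjusted p of 0.05. Sdc3 lies near -0.46 in all 3, while Itm2a lies at 0.73 in deep and -0.32 in shallow libraries.

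Of the 10 genes, 7 passed the count filter in deep libraries and 6 in shallow libraries and over all 18. In deep libraries 2 were called higher and 1 lower, where 14.3% of the 13136 genes tested were called, 7.31% higher and 7.03% lower. Groups did not overlap for Spry1 and Itm2a, with every scKO above every control (24.3% of all genes tested), and for Sdc3, with every scKO below (20.9%), or 45.2% of genes in either direction. Tek had every scKO above every control too, from 3 to 6 counts a library. It did not pass the count filter, so these shares do not cover it. In shallow libraries 0 were called, against 0.0434% of all genes tested, 0.029% higher and 0.0145% lower (unadjusted p under 0.05 for 1 gene, and for 6.15% of all genes; DESeq2 and limma-voom also called 0). No marker gene had groups without overlap there, as 0.319% of all genes did. With the depth class as a covariate 0 were called, against 0.679% of all genes, 0.326% higher and 0.352% lower (unadjusted p under 0.05 for 1 gene, and for 11.9% of all genes; DESeq2 and limma-voom 0). The test of a difference between classes called 0 of 6 genes and 0% of all genes tested, with an unadjusted p under 0.05 for 2 of the 6 and 6.17% of all genes. The median log2 fold change over the members tested was 0.04 in deep libraries, beside 0.00 over all genes tested, and 0.01 beside -0.02 in shallow ones.

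Sums of smooth muscle and pericyte markers and of Schwann cell markers did not overlap between the deep groups, beside 45.2% of single genes tested. The other sums overlapped, among them the myogenic markers, at 1880 to 2080 CPM in deep scKO and 1810 to 2260 CPM in deep control libraries. Smooth muscle and pericyte markers, all 6 detected, summed to 231 to 240 CPM in deep scKO and 212 to 217 CPM in deep control libraries. Rgs5 and Abcc9 were the highest of them, with means of 80.2 and 43.2 CPM over all 18 libraries. Schwann cell markers, all 5 detected, summed to 35.5 to 52.8 CPM in deep scKO and 19.7 to 28.6 CPM in deep control libraries. Fibro-adipogenic and leukocyte sums overlapped, at 46.0 to 55.5 and 7.33 to 15.0 CPM in deep scKO and 41.0 to 46.9 and 3.90 to 7.99 CPM in deep control libraries, with the leukocyte genes Ptprc and Adgre1 at 0 in the controls. Tendon sums overlapped as well, at 303 to 334 CPM in deep scKO (Tnmd at 0) and 257 to 308 CPM in deep control libraries (Fmod at 0). Endothelial markers, the type that shares Cd34, Tek, Vcam1 and Cxcr4, overlapped at 19.0 to 24.0 CPM in deep scKO and 11.1 to 38.8 CPM in deep control libraries. The part of these cell types in the results was not tested.

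Levels were also ranked per kilobase of merged exon, which assumes that reads fall along the transcript; the library kit is not given in the sources used here. In deep scKO libraries the order was Itm2a (91.4 ± 6.60 CPM per kb), Sdc4 (61.8 ± 7.62), Cxcr4 (53.2 ± 6.53), Spry1 (30.7 ± 5.41), Sdc3 (12.9 ± 1.11), Vcam1 (12.7 ± 1.98) and Cd34 (1.03 ± 0.0512; SD, n = 3 each). Sdc4 and Cxcr4 overlapped in range, and so did Sdc3 and Vcam1. In deep control libraries it was Sdc4 (64.4 ± 2.40), Itm2a (54.5 ± 1.99), Cxcr4 (51.1 ± 4.66), Spry1 (17.8 ± 2.10), Sdc3 (17.7 ± 0.259), Vcam1 (14.9 ± 0.939) and Cd34 (0.800 ± 0.308; SD, n = 2 each). There Itm2a and Cxcr4 overlapped, as did Spry1 and Sdc3. Itm2a led in shallow libraries too, at 75.2 ± 16.6 CPM per kb in scKO (SD, n = 6) and 93.0 ± 15.6 CPM per kb in control (SD, n = 7), with Sdc4 next at 61.0 ± 14.8 and 45.3 ± 10.6 CPM per kb. Chrdl2 and Tek stayed under 0.5 CPM per kb on average in every class and group.

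**Figure D3:**
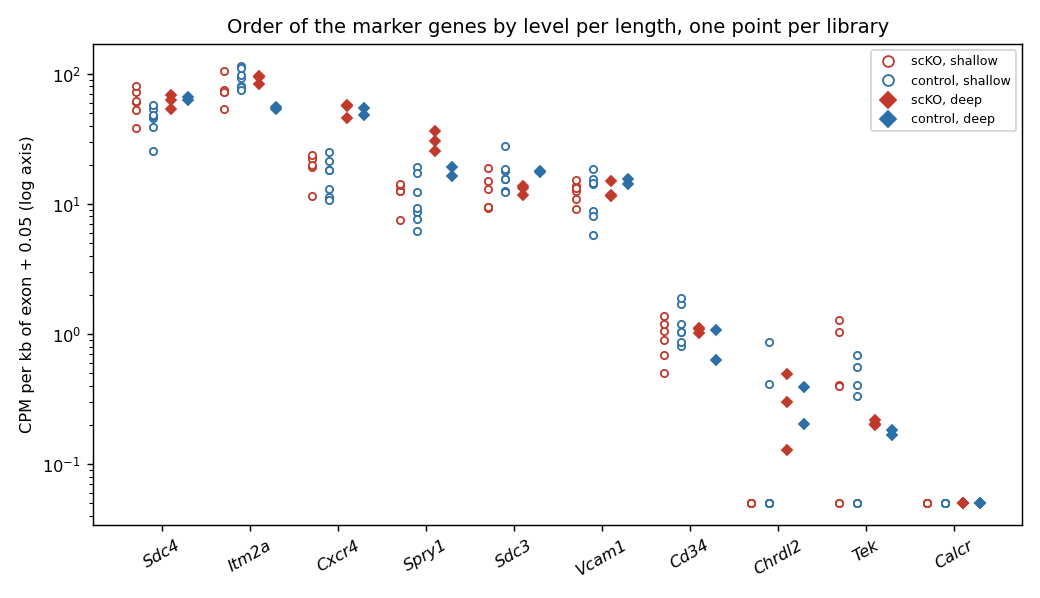
CPM per kilobase of merged exon plus 0.05, on a log axis, for all 10 marker genes in every library, ordered by the mean of deep control libraries (open circles shallow, filled diamonds deep; scKO left of control within a depth class). Sdc4, Itm2a and, in deep libraries, Cxcr4 lie highest, Calcr is at 0 throughout, and Chrdl2 and Tek include libraries at 0.

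Genes related to the markers were called in the deep libraries at a share close to that of all genes. Of 33 ligands, receptors and relatives of the marker genes, 29 were tested there and 5 were called, 4 higher (Fst, Grem1, Nog and Ramp3) and 1 lower (Cxcl12), or 17.2% beside the 14.3% of all genes tested. Of 29 other quiescence and surface genes, all 29 were tested and 5 were called, 3 higher and 2 lower, again 17.2%. Their median log2 fold changes were 0.09 and 0.06. In shallow libraries and with the depth class as a covariate, 0 genes of either list were called (unadjusted p under 0.05 for 1 and 3 genes in shallow libraries and for 2 and 3 with the covariate). DESeq2 called Cxcl12 with the covariate, as given above.

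Egfr, the receptor of epidermal growth factor, which controls how satellite cells orient their divisions, was at 12.7, 7.72 and 10.4 CPM in deep scKO against 4.64 and 5.12 CPM in deep control libraries (log2 fold change 1.04, SE 0.25; edgeR adjusted p = 0.0146), a call lost without control 1 (adjusted p = 0.0646). In shallow libraries, where it did not pass the filter, it was at 7.29 to 18.5 CPM in scKO and 1.20 to 11.9 CPM in control. Dag1, the dystroglycan that binds laminin, was at 215, 190 and 212 CPM in deep scKO against 150 and 167 CPM in deep control libraries, and rose by 0.36 on the log2 scale (SE 0.10; edgeR adjusted p = 0.0262). Its shallow value was 0.35 (SE 0.15; edgeR adjusted p = 0.800), and the deep call was lost without control 1 or scKO 6 or 9 (adjusted p = 0.0678 to 0.109). Gas1, a membrane protein of growth-arrested cells, rose by 0.36 in deep scKO (SE 0.11; edgeR adjusted p = 0.042), a call lost without control 1 or scKO 6, 7 or 9 (adjusted p = 0.0553 to 0.223), without robust dispersions, by DESeq2 and by limma-voom (adjusted p = 0.0527 to 0.0738). Its shallow value was -0.13 (SE 0.17; edgeR adjusted p = 0.903).

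Met, the receptor of HGF, which wakes satellite cells after injury, was at 181, 170 and 185 CPM in deep scKO against 225 and 221 CPM in deep control libraries, and fell by 0.33 on the log2 scale (SE 0.09; edgeR adjusted p = 0.0257). Myf5, a myogenic transcription factor, fell by 0.33 as well (SE 0.10; edgeR adjusted p = 0.035), at 106, 108 and 121 CPM against 132 and 146 CPM in deep control libraries. Leaving out scKO 6 or 7 ended either call, as did leaving out scKO 9 for Met (adjusted p = 0.0596 to 0.143) and control 2 for Myf5 (adjusted p = 0.0852 to 0.164 over its 3 libraries). DESeq2 did not call Myf5 either (adjusted p = 0.066). Pax7, the transcription factor that defines satellite cells, was at 33.1, 38.6 and 44.4 CPM in deep scKO and 38.4 and 53.9 CPM in deep control libraries, with overlapping groups (log2 fold change -0.28; edgeR adjusted p = 0.280).

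**Figure D4:**
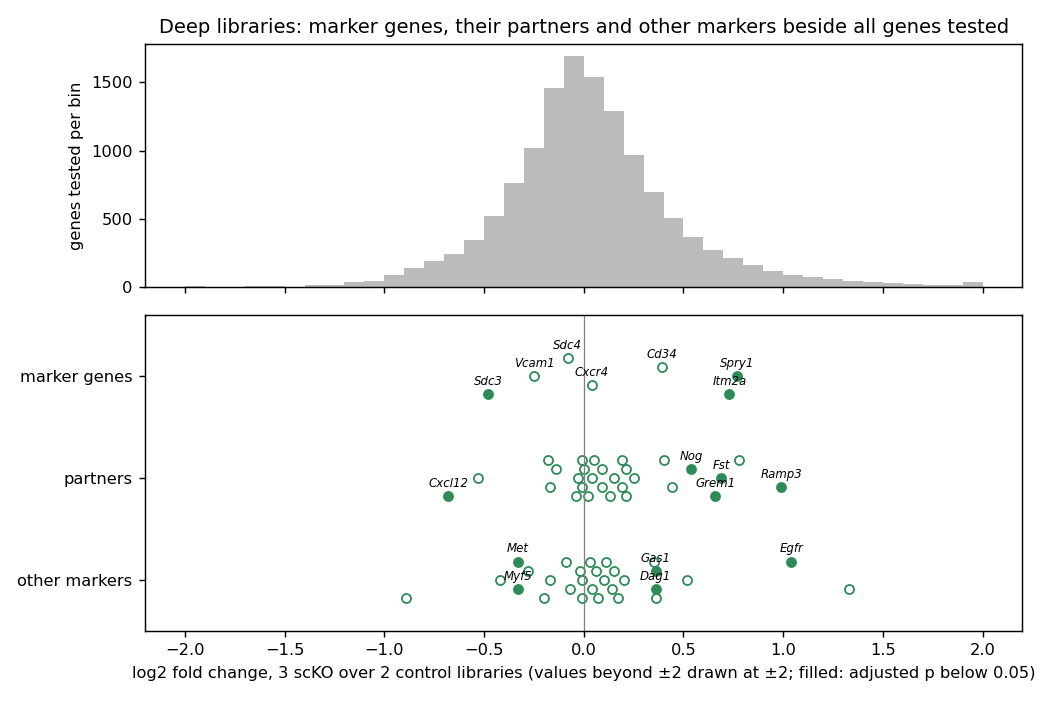
Log2 fold change of 3 deep scKO over 2 deep control libraries; the upper panel counts all 13136 genes tested in bins of 0.1, and the lower panel shows the marker genes, their partners and the other markers, filled where the edgeR adjusted p was under 0.05. Sdc3, Spry1 and Itm2a are the 3 filled marker genes, and Cxcl12 is the filled partner on the lower side.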

How the data were processed

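The deposited table holds raw counts of UMIs per gene for 18 libraries, per the file name, not normalized by the authors. Per the submitters' processing notes the tools were HISAT2 and HTSeq, versions and settings not given, and the listed build is that of rat, Rnor_6.0, although rows carry mouse Ensembl identifiers. Kit, UMI length and use of strand are not given in the sources used here. Symbols were paired for 50376 of 50689 rows, with positions and exon lengths from GENCODE M21 (GRCm38) and upstream sequences from RefSeq (GRCm38.p6).

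From these counts, genes were filtered by filterByExpr, scaled by TMM and tested with the quasi-likelihood test of edgeR 4.0.16 (robust; R 4.3.3), Benjamini-Hochberg adjusted over all genes of a fit, threshold 0.05. Fits were over all 18 libraries with the depth class (total over or under 2000000) as a covariate, within each class, and with the interaction of group and class. Intervals are 95% from the fit's degrees of freedom. Alternatives used DESeq2 1.42.0, limma-voom (limma 3.58.1), other normalization and filters, UMI collision correction with 4096 UMIs, and each library left out. A count of 3 was taken as the floor, and corresponds to 0.501 to 7.14 CPM of the unscaled total of a library. The fits were also run on simulated data, which had the same spread between libraries in both depth classes. That run does not measure how the fits perform on these libraries. No 2 libraries of a group agreed within sampling noise (lowest chi-square per degree of freedom 2.05). The marker genes, the lists and the depth classes were chosen with earlier results of these data known. Genes named beside the marker genes were the partners and other markers that passed in any fit, the partner with the highest mean of each marker gene, and, chosen after their values were seen, further relatives given as values.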

Additional observations from a re-analysis of the deposited data

Results flagged for a closer look

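Within 17 sets of shallow libraries of 1 gene and 1 group, 3 held a library far from the others by Dixon's test at 95%, where chance gives about 1 in 20. Spry1 in scKO 1 was at 21.7 CPM, below the next of the 6 shallow scKO libraries at 36.5 CPM. Cxcr4 in scKO 3 was at 20.8 CPM, with the next at 34.6 CPM. Sdc3 in control 8 was at 168 CPM, above the next of the 7 shallow control libraries at 111 CPM. Both scKO 1 and control 8 are among the 4 that stood apart on the 2nd principal component.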

How the results depend on the processing

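In deep libraries the calls of Spry1 (0.64 to 0.90 on the log2 scale with a library left out), Sdc3 (-0.52 to -0.40) and Itm2a (0.68 to 0.78) held under all 12 alternatives run, and the number of marker genes called was 3 to 4. Over all 18 libraries with the depth class it was 0 to 1 with a library left out and 1 without the 4 libraries that stood apart, Sdc3 in each case. In shallow libraries and for the difference between classes it was 0 under every alternative run. Directions turned only for values that were no edgeR call, and the cause was not tested. Itm2a over all libraries was -0.05 with no depth class, -0.04 with the replicate block and -0.11 to 0.09 with a library left out. Vcam1 in shallow libraries was 0.00 with RLE normalization and with at least 10 counts in every library, 0.02 without a count filter and by DESeq2, 0.06 by limma-voom and -0.12 to 0.13 with a library left out. Spry1 in shallow libraries was -0.08 without the 4 libraries, -0.12 with the replicate block and -0.05 to 0.22 with a library left out. With a library left out, deep values of Cxcr4 ran from -0.06 to 0.14, of Cd34 from -0.01 to 0.79 and of Sdc4 from -0.16 to 0.02, and the Sdc3 difference between classes from -0.17 to 0.13. For Vcam1 that difference was 0.03 without the 4 libraries, an alternative that for the difference between classes was chosen after seeing the data.

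The groups share replicate numbers, but same-numbered libraries did not deviate together throughout (correlation -0.066 to 0.249 over 9 pairs, and 2 of 9 control libraries correlated best with their own number). With the number as a block, Sdc3 was -0.42 (edgeR adjusted p = 0.298) over all libraries and 0 marker genes were called there and in shallow libraries. Deep groups share no number. Over all genes, edgeR called 52 with the depth class as covariate, against 359 without a count filter, 13 with at least 10 counts in every library, 299 by DESeq2, 101 by limma-voom, 1 with no depth class, 14 with the replicate block, 617 without the 4 libraries and 11 to 216 with a library left out. In shallow libraries it called 3, against 13 without a count filter, 6 by DESeq2, 0 without the 4 libraries and 1 to 5 with a library left out, and in deep libraries 1884, against 1225 by DESeq2 and 996 to 1810 with a library left out, the lowest without scKO 7. Low counts limit Cd34, Tek and Chrdl2, and 3 against 2 libraries limit the deep comparison.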
